A study of Mus with 2 samples.

Results

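Interferon response genes were followed through single-cell RNA sequencing of whole kidney from senescent and from young C57BL/6 mice, a common inbred laboratory strain. Their members were taken by name from the authors' deposited table and comprised the Ifit, Ifitm, Oas, Gbp, Irf and Stat genes, the Ifi genes with a numeric name other than Ifi30, and 16 further genes fixed by symbol. Of 8191 distinct genes in that table, 53 were members. They had 100 of its 20111 entries, an entry being 1 gene in 1 cell cluster. Each group was 1 droplet library, with 4408 cells stated for the senescent mice and 10895 for the young mice. The labels describe the senescent and the young group by age class and tissue, and no treatment or genetic change is named for either. The ages in months, the sex and the number of mice behind each library are not given in the sources used here.

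Interferons are secreted proteins that warn cells of viruses and other intracellular microbes. Type I and type III interferons act through receptor-bound Janus kinases on Stat factors that join Irf9 and switch on genes with an interferon-stimulated response element, whereas interferon gamma acts on a partly different set of genes through factors such as Irf1. The induced genes encode membrane proteins that block viral entry or release, sensors and degraders of viral RNA, DNA-binding PYHIN proteins, and GTPases that attack the vacuoles of intracellular parasites. In the deposited annotation, 29 of the 53 members carried the term defense response to virus, against 1.42% of all listed genes, and 19 carried cellular response to interferon-beta, against 0.366%. Since members were chosen by interferon-related names, these shares describe the choice and are not a result. Not all members are interferon-induced genes. Stat5b and Stat6, for example, were taken by name although growth hormone and interleukin-4 signalling are their best known roles, and Irf2bp1, Irf2bp2 and Irf2bpl encode IRF2-binding proteins or their relatives.

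Every value below is the authors' mean expression per cell of a cluster in 1 library, a signal whose scale factor is not stated. The contrast is named C57-vs-WT-48 in the table, a name that gives no age and that the labels do not explain, so each direction depends on how the labels describe the columns. Only genes that differed are listed, with an authors' p-value over cells under 0.05 and a log2 fold change of at least 0.36 in size, so absence from a cluster's list does not show an unchanged gene. Each group being a single library, mice could not be compared with each other and no test was made. Values therefore have no SD, and the adjusted p-values quoted from the authors' deposited table describe variation from cell to cell. A higher mean can come from more expressing cells or from more RNA per cell, and these cannot be told apart in means. The authors labelled the 7 clusters Marco, T, B, Neutro, PT, LOH and endo. Fixed markers of the named cell type were listed for 12 of 13 genes in PT (proximal tubule), 13 of 13 in Marco (macrophage or monocyte), 10 of 10 in T and 6 of 7 in B. Listing shows only that a marker differed between the libraries, so these counts do not check the labels. Proximal tubule markers were also listed for 13 of 13 genes in T and for 12 of 13 in LOH, Marco and B. In LOH 1 of 7 thick ascending limb markers was listed, Umod, with means of 148 in the senescent and 47.6 in the young library, against 0.535 and 3.20 in PT in the same order. In Neutro 2 of 8 neutrophil markers were listed, S100a8 at 1206 in the senescent and 604 in the young library and S100a9 at 1426 in the senescent and 545 in the young library, where PT had senescent means of 0.928 and 1.13 for these genes. Of 10 endothelial markers 0 were listed in endo, so that label could not be checked against them.

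All 100 entries of the interferon response genes had a higher mean in the senescent library than in the young library. Members listed numbered 44 in Marco, 20 in T, 16 in PT, 8 in endo, 6 in LOH, 5 in B and 1 in Neutro. All listed genes numbered 4462 in Marco, 4368 in T, 5037 in PT and 1028 in endo. For LOH, B and Neutro these numbers were 1761, 3077 and 378. The member counts have to be read beside them. The share of all listed genes with a higher senescent mean was 58.3% in Marco, 45.4% in T, 78.4% in PT, 48.8% in endo, 47.8% in LOH, 28.3% in B and 6.35% in Neutro. A ratio of at least 2-fold was reached by 43 of 44 members in Marco, where 47.6% of all listed genes reached it. In T 19 of 20 members reached it against 26.2% of all listed genes, in PT 13 of 16 against 57.2%, and in endo 8 of 8 against 41.9%. In LOH 4 of 6 members reached it against 27.5%, in B 4 of 5 against 16.3%, and in Neutro the only listed member against 5.29%. A gene listed at 0 in the young library counts here as past 2-fold, and no ratio is given for it.

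**Figure D1:**
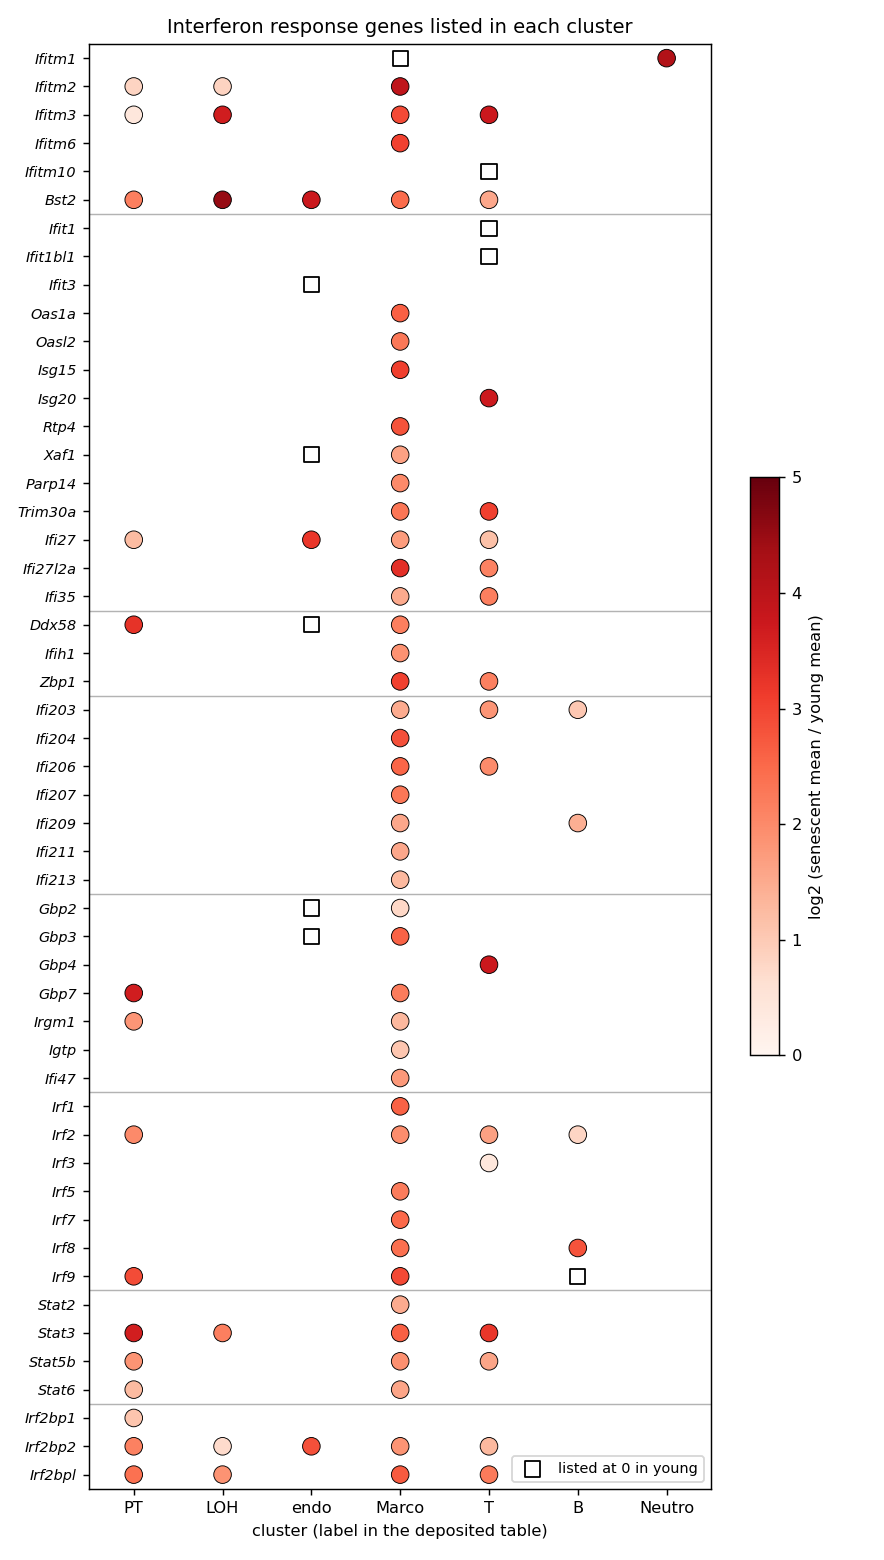
Log2 ratio of the senescent to the young mean (colour) for 51 of the 53 interferon response genes (down the page, grouped by role) in each of the 7 clusters. A circle is a listed gene, an open square is a gene listed at 0 in the young library, and an empty place is a gene not listed; no entry shown is lower in the senescent library.

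**Figure D2:**
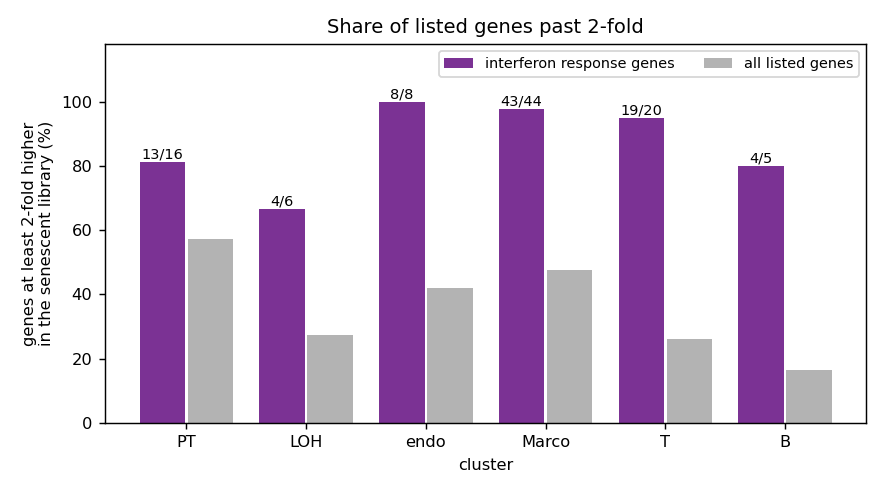
Share of genes (%, vertical axis) with a mean at least 2-fold higher in the senescent than in the young library, for interferon response genes (purple, with counts) and all listed genes (grey) in 6 clusters. The member share is 97.7% in Marco and 81.3% in PT, above the grey bars of 47.6% and 57.2%.

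In Marco, the macrophage-marked cluster, interferon-induced membrane proteins, antiviral effectors, sensors and transcription factors were all higher in the senescent library, mostly by 2-fold to 10-fold. The median ratio over the 44 members was 4.74-fold, with Ifitm1, listed at 0 in the young library, ranked highest. Over the 43 members with a ratio it was 4.67-fold. On the log2 scale with a pseudocount of 1 added to each mean, the median was 0.56, beside 0.23 over all 4462 listed genes of the cluster. An adjusted p of 0.05 was passed as higher by 29 of the 44 in the authors' deposited table, against 24.6% of all listed genes.

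The largest ratio was in a membrane protein gene. Ifitm2, which restricts entry of enveloped viruses, had means of 17.6 in the senescent and 1.14 in the young library, a ratio of 15.4. Ifitm3, the best studied member of that family, had means of 24.7 in the senescent and 3.26 in the young library, a ratio of 7.57. Ifitm6, a myeloid relative, had means of 2.102 in the senescent and 0.255 in the young library, a ratio of 8.23. Ifitm1 of the same family had a mean of 4.02 in the senescent library, against a listed value of 0 in the young library. Ifitm1 and Ifitm6 are also abundant in neutrophils, and neutrophil markers moved with them in Marco. Of the 8 markers, 5 were listed in Marco and 4 of these were higher, with a summed mean of 7.39 in the senescent and 0.975 in the young library, and S100a8 was listed at 0 in the young library. Their part in the Ifitm result was not tested. Bst2, or tetherin, which holds budding virions on the cell surface, had means of 3.38 in the senescent and 0.609 in the young library, a ratio of 5.56. Bst2 marks plasmacytoid dendritic cells as well, and of the 4 other markers of those cells Tcf4 was listed in Marco. Tcf4 had means of 1.24 in the senescent and 0.156 in the young library, with an adjusted p of 9.28e-12 in the authors' deposited table, and its part in the Bst2 result was not tested.

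Among antiviral effectors, 10 of 14 were listed in Marco, with ratios of 2.84 to 10.0, beside 4462 of all 8191 genes listed there. Ifi27l2a, which encodes a small hydrophobic protein, had means of 19.3 in the senescent and 1.93 in the young library, the ratio of 10.0. Isg15, a ubiquitin-like modifier, had means of 0.628 in the senescent and 0.0746 in the young library, a ratio of 8.42. Rtp4, an interferon-induced chaperone gene, had means of 0.692 in the senescent and 0.0992 in the young library, a ratio of 6.98. Effectors that act on RNA were higher as well. Oasl2, of the oligoadenylate synthetase family, had means of 0.692 in the senescent and 0.144 in the young library. Oas1a, which makes the activator of RNase L, had means of 0.390 in the senescent and 0.0629 in the young library, and its adjusted p was 0.0639 in the authors' deposited table. Trim30a had means of 1.14 in the senescent and 0.230 in the young library, a ratio of 4.96. Parp14, a mono-ADP-ribosyltransferase gene, had means of 0.641 in the senescent and 0.160 in the young library. Smaller ratios were those of Xaf1, which promotes apoptosis, at 0.619 in the senescent and 0.196 in the young library, and of Ifi35 at 0.544 and 0.191 in the same order.

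Sensors of foreign nucleic acid were listed in Marco for all 3 members, beside 4462 of all 8191 genes. Zbp1, a sensor of Z-form nucleic acid that can trigger necroptosis, had means of 1.02 in the senescent and 0.124 in the young library, a ratio of 8.23. Ddx58, which encodes the RNA sensor RIG-I, had means of 0.303 in the senescent and 0.0672 in the young library. Ifih1, which encodes the RNA sensor MDA5, had means of 0.375 in the senescent and 0.101 in the young library. Zbp1 alone passed by adjusted p in the authors' deposited table, where 24.6% of all genes listed in Marco passed as higher.

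All 7 PYHIN genes, whose products bind DNA and include inflammasome regulators, were listed in Marco with ratios of 2.42 to 7.20. By adjusted p 5 passed in the authors' deposited table, where 24.6% of all genes listed in Marco passed as higher. Members are genes listed in at least 1 cluster, and 4462 of all 8191 genes were listed in Marco. Ifi204 had means of 1.77 in the senescent and 0.245 in the young library, a ratio of 7.20. Ifi207 had means of 2.03 in the senescent and 0.413 in the young library, a ratio of 4.92. Ifi206 (0.502 senescent, 0.0856 young) did not pass. These genes are close copies of one another, and how reads shared between them were counted is not given in the sources used here, so the split among them is uncertain. The guanylate-binding and immunity-related GTPases included the smallest ratios of the cluster. Gbp2 had means of 0.364 in the senescent and 0.212 in the young library, a ratio of 1.72, which made it the only member in Marco under 2-fold. Gbp3 had means of 0.338 in the senescent and 0.0560 in the young library, a ratio of 6.05. Igtp and Irgm1, which act on parasite vacuoles, had ratios of 2.099 and 2.45, and Ifi47 had a ratio of 3.38.

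The transcription factors that carry the interferon signal were listed in Marco with ratios of 2.81 to 7.64. Irf9, the DNA-binding partner of Stat2, had means of 0.870 in the senescent and 0.114 in the young library, a ratio of 7.64. Irf7, the amplifier of type I interferon production, had means of 0.831 in the senescent and 0.146 in the young library, a ratio of 5.71. Irf1, which serves interferon gamma, had means of 0.875 in the senescent and 0.143 in the young library, a ratio of 6.10. Irf5 and Irf8, factors of the myeloid lineage, had ratios of 4.67 and 5.30, with Irf8 at 2.36 in the senescent and 0.446 in the young library. Irf2, which can oppose Irf1, had means of 1.66 in the senescent and 0.424 in the young library. All 6 of these factors passed in the authors' deposited table, where 24.6% of all genes listed in Marco passed as higher. The Stat genes were higher too, but only Stat3 passed there. Stat3, which serves interleukin-6 and interleukin-10, had means of 1.35 in the senescent and 0.220 in the young library, a ratio of 6.14. Stat2 had means of 0.281 in the senescent and 0.1001 in the young library, a ratio of 2.81. Irf2bpl had means of 0.990 in the senescent and 0.151 in the young library, a ratio of 6.55.

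**Figure D3:**
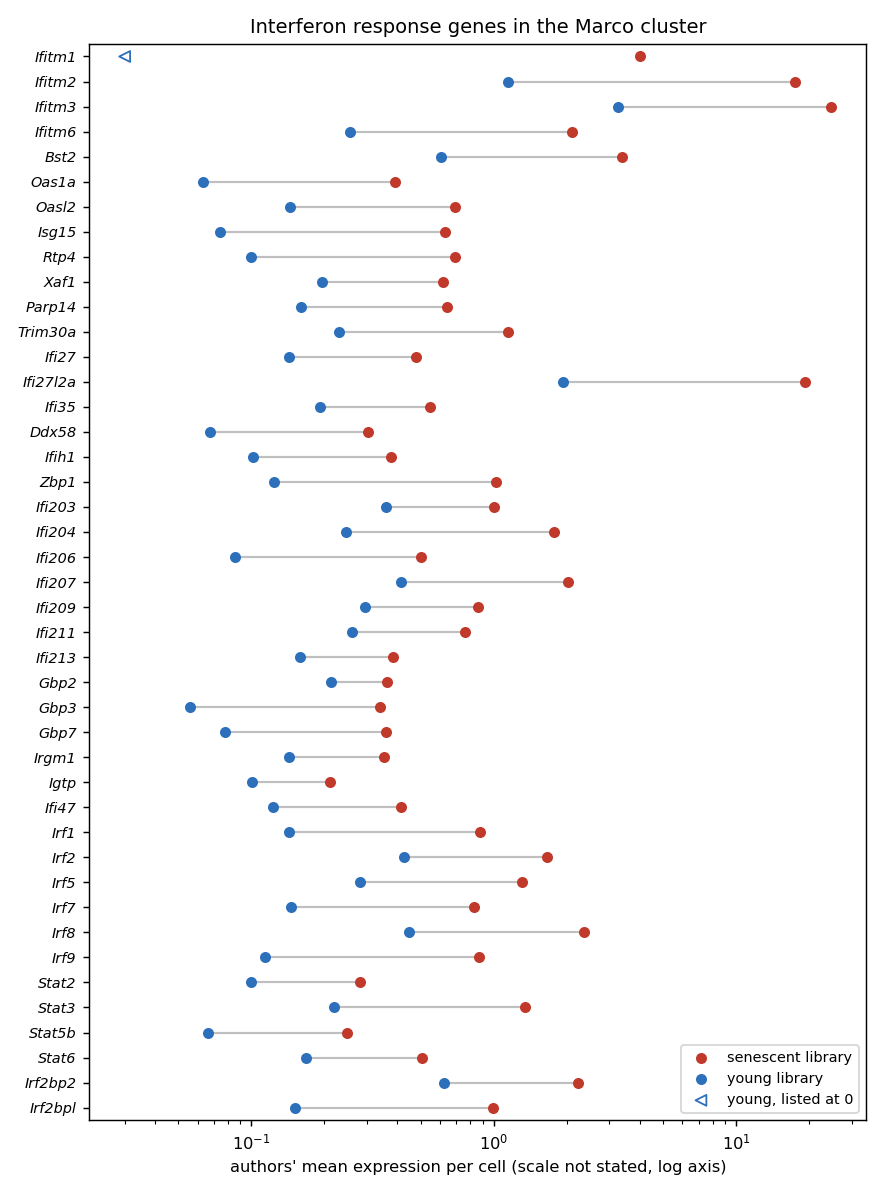
Authors' mean expression per cell (horizontal log axis, scale not stated) of 43 of the 44 interferon response genes listed in Marco, in the senescent library (red) and the young library (blue). Every red point lies right of its blue point; Ifitm1, listed at 0 in young, has an open triangle at the left edge in place of a value.

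Other gene sets moved in the same clusters, and the size of the interferon response genes' ratios has to be read beside them. In Marco, the 13 macrophage or monocyte markers were all higher, with a median ratio of 7.80 and a summed mean of 375 in the senescent and 44.8 in the young library. No marker of that list was at 0 in either library. The 12 listed proximal tubule markers were lower, with a summed mean of 32.9 in the senescent and 882 in the young library, and 77 listed ribosomal protein genes had a median ratio of 2.27. Relative to the median ratio of the macrophage markers, 6 of 44 members remained higher, namely Ifitm1, Ifitm2, Ifitm6, Ifi27l2a, Isg15 and Zbp1, beside 8.29% of all listed genes of Marco. Relative to the ribosomal protein genes 42 of 44 remained higher, the exceptions being Gbp2 and Igtp, beside 42.0% of all listed genes. Relative to all listed genes 43 of 44 remained higher, the exception being Gbp2, where 50.0% do by construction. The part of tubule RNA, or of macrophage RNA content as a whole, in these ratios was not tested.

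In T, the 10 T cell markers had a median ratio of 3.51, with a summed mean of 76.3 in the senescent and 21.0 in the young library, and proximal tubule markers summed to 30.3 in the senescent and 723 in the young library. There 14 of 20 members remained higher relative to the T cell markers, the exceptions being Bst2, Ifi27, Irf2, Irf2bp2, Irf3 and Stat5b, beside 11.5% of all listed genes of T. Relative to the ribosomal protein genes 19 of 20 remained higher, the exception being Irf3, beside 26.4%. In B, 3 of 5 members remained higher relative to either set, and the exceptions were Ifi203 and Irf2. Of all listed genes of B, 12.6% remained higher relative to the B cell markers and 14.9% relative to the ribosomal protein genes. In PT the 12 listed proximal tubule markers went both ways, 5 higher and 7 lower, with a median ratio of 0.700. Their summed mean was 300.0 in the senescent and 1072 in the young library, of which Kap made up 21.4 and 719. All 16 members remained higher relative to the markers' median, beside 82.8% of all listed genes of PT. Relative to ribosomal protein genes 15 of 16 did, beside 69.0%, and relative to all listed genes 12 of 16, beside 50.0%.

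**Figure D4:**
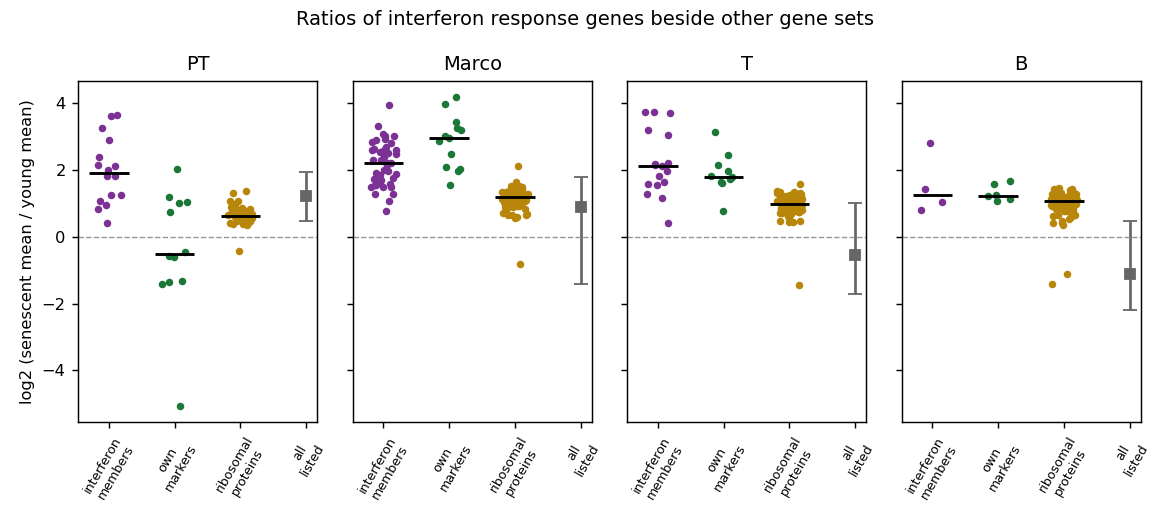
Log2 ratio of the senescent to the young mean (vertical axis) in PT, Marco, T and B for interferon response genes, fixed markers of the labelled cell type and ribosomal protein genes (each point a gene, bar the median), and for all listed genes (grey, median with its quartiles). Genes at 0 in a library are left out; in Marco the median ratio is 4.67-fold for 43 members and 7.80-fold for 13 macrophage markers.

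In PT, the proximal tubule cluster, 16 members were higher in the senescent library, with ratios of 1.35 to 12.7 and a median of 3.79. All 16 passed by adjusted p in the authors' deposited table, as did 78.3% of all listed genes as higher, so passing says little here. On the log2 scale with a pseudocount of 1 the median was 0.32, beside 0.23 over all listed genes of PT. The largest ratios were in a GTPase, a Stat factor and an RNA sensor. Gbp7, a guanylate-binding protein gene, had means of 0.312 in the senescent and 0.0245 in the young library, a ratio of 12.7. Stat3 had means of 0.564 in the senescent and 0.0454 in the young library, a ratio of 12.4. Ddx58 had means of 0.220 in the senescent and 0.0227 in the young library, a ratio of 9.70. Irf9 followed, with 0.209 in the senescent and 0.0281 in the young library, a ratio of 7.46. Irf2 had means of 0.395 in the senescent and 0.0980 in the young library. Bst2 had means of 0.350 in the senescent and 0.0780 in the young library, a ratio of 4.49. The GTPase gene Irgm1 had means of 0.380 in the senescent and 0.107 in the young library, a ratio of 3.55.

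The IRF2-binding protein genes were also higher in PT. Irf2bp2, a transcriptional corepressor gene, had means of 1.87 in the senescent and 0.427 in the young library, a ratio of 4.38. Irf2bpl had means of 0.512 in the senescent and 0.0979 in the young library, a ratio of 5.23. Ifi27 had means of 0.819 in the senescent and 0.346 in the young library, a ratio of 2.37. The membrane protein genes that stood out in Marco had small ratios in PT. Ifitm2 had means of 0.796 in the senescent and 0.445 in the young library, a ratio of 1.79. Ifitm3 had means of 0.250 in the senescent and 0.186 in the young library, a ratio of 1.35, the smallest of the 16. Relative to the median of all listed genes, which was 2.34-fold higher in PT, members that were lower in the senescent library included Ifitm2, Ifitm3 and Irf2bp1. Isg15, Stat2, Irf7, the Oas genes and the Ifit genes were not listed in PT. Macrophage or monocyte markers were listed in PT for 3 of 13 genes, and their summed mean was 13.1 in the senescent and 1.34 in the young library. Apoe made up 12.4 and 0.776 of these sums, and Lyz2 was lower in the senescent library. Neutrophil markers were listed for 3 of 8 genes, all higher, with a summed mean of 5.30 in the senescent and 2.89 in the young library. The part of these markers in the member ratios was not tested. For each of the 14 members listed in both PT and Marco, the senescent mean in PT was taken as a percentage of that in Marco. The median of these percentages was 46.8%, with a range of 1.01% to 172%. For the 3 macrophage or monocyte markers the median was 3.68%, with a range of 0.694% to 8.66%. The lowest member percentage, that of Ifitm3, lay within this range. In the young library the medians were 36.3% for the members and 8.60% for the markers. The source of the member RNA in PT was not tested.

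In LOH, 6 members were listed, all higher in the senescent library, and 2 of them passed in the authors' deposited table, where 4.71% of all listed genes passed as higher. Stat3 had means of 1.28 in the senescent and 0.283 in the young library, a ratio of 4.53, and Irf2bpl had means of 1.49 in the senescent and 0.407 in the young library, a ratio of 3.67. These were the genes that passed. Bst2 had the largest ratio at 22.9, from means of 0.442 in the senescent and 0.0193 in the young library, and Ifitm3 had means of 0.670 in the senescent and 0.0529 in the young library. Ifitm2 (2.12 senescent, 1.17 young) and Irf2bp2 (1.07 senescent, 0.651 young) had ratios under 2. The median log2 ratio with a pseudocount of 1 was 0.59 over the 6 members and -0.11 over all listed genes. Macrophage or monocyte markers were listed for 3 of 13 genes in LOH, with a summed mean of 8.50 in the senescent and 1.18 in the young library. Neutrophil markers were listed for 2 of 8 genes, S100a8 and S100a9, with a summed mean of 5.42 in the senescent and 0.0575 in the young library, and Cd74 had means of 2.44 in the senescent and 0.213 in the young library. The 12 listed proximal tubule markers were lower, with a summed mean of 104 in the senescent and 382 in the young library, while Umod was higher as given above. The part of these markers in the member values was not tested.

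In endo, 8 members were listed and all were higher in the senescent library, but 0 of 8 passed by adjusted p in the authors' deposited table, where 0.394% of all listed genes passed as higher. Of the 8, 5 were listed at 0 in the young library. They were Ifit3, of the RNA-binding Ifit family, at 1.92 in the senescent library, Gbp2 at 1.46, Ddx58 at 0.480, Gbp3 at 0.454 and Xaf1 at 0.429. Listing at 0 was common there, at 169 of 1028 genes in the young library, and the smallest young mean above 0 was 0.0365. Bst2 had means of 1.64 in the senescent and 0.121 in the young library, a ratio of 13.6. Ifi27 had means of 2.03 in the senescent and 0.220 in the young library, a ratio of 9.22. Irf2bp2 had means of 2.23 in the senescent and 0.313 in the young library, a ratio of 7.12. The median log2 ratio with a pseudocount of 1 was 1.27 over the 8 members and -0.10 over all listed genes. The 2 listed macrophage or monocyte markers, Apoe and Lyz2, summed to 12.1 in the senescent and 3.95 in the young library, with Lyz2 at 0 in the young library. S100a8 and S100a9, of 8 neutrophil markers, had means of 1.55 and 1.67 in the senescent library and were both at 0 in the young library, like 5 of the members. Cd74 had means of 7.18 in the senescent and 1.77 in the young library. Proximal tubule markers were listed for 5 of 13 genes and 4 of these were lower, with a summed mean of 134 in the senescent and 385 in the young library, of which Kap made up 4.31 and 294. The part of these markers in the member values was not tested.

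In T, 20 members had higher senescent means, by a median ratio of 4.50. That median ranks 3 genes listed at 0 in the young library highest, and over the 17 members with a ratio it was 4.34. By adjusted p, 1 of 20 passed in the authors' deposited table, where 6.69% of all listed genes passed as higher. The gene that passed was Irf2bp2, at 1.58 in the senescent and 0.651 in the young library. Effectors with large ratios included Isg20, an exonuclease gene that degrades viral RNA, with means of 0.968 in the senescent and 0.0737 in the young library, a ratio of 13.1. Trim30a had means of 1.21 in the senescent and 0.146 in the young library, a ratio of 8.29. Ifi27l2a had means of 9.79 in the senescent and 2.26 in the young library, a ratio of 4.34. Ifit1, Ifit1bl1 and Ifitm10 had means of 0.754, 0.462 and 0.475 in the senescent library, and each was listed at 0 in the young library. Gbp4 and Ifitm3 had ratios above 13, Gbp4 from means of 0.687 in the senescent and 0.0514 in the young library and Ifitm3 from means of 0.824 in the senescent and 0.0621 in the young library.

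Transcription factors and DNA-binding proteins were higher in T too. Stat3 had means of 1.16 in the senescent and 0.126 in the young library, a ratio of 9.25. Irf2 had means of 2.19 in the senescent and 0.698 in the young library, a ratio of 3.14. Irf3, the constitutive factor that starts interferon transcription, had means of 0.369 in the senescent and 0.276 in the young library, a ratio of 1.34 and the only one in T under 2-fold. Ifi203 had means of 4.12 in the senescent and 1.16 in the young library, Ifi206 had means of 1.41 and 0.358, and Zbp1 had means of 1.08 and 0.242, in the same order. The median log2 ratio with a pseudocount of 1 was 0.80 over the 20 members and -0.11 over all listed genes. Macrophage or monocyte markers were listed for 2 of 13 genes in T, Apoe and Ctss, with a summed mean of 4.61 in the senescent and 0.671 in the young library, and their part was not tested.

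In B, 5 members were higher in the senescent library, and 0 passed in the authors' deposited table, where 3.32% of all listed genes passed as higher. Irf8, a factor of B cell and myeloid development, had means of 4.86 in the senescent and 0.694 in the young library, a ratio of 7.004. Irf9 had a mean of 0.853 in the senescent library and was listed at 0 in the young library. Irf2 had means of 3.23 in the senescent and 1.84 in the young library, a ratio of 1.75. The PYHIN genes Ifi203 (2.999 senescent, 1.45 young) and Ifi209 (1.63 senescent, 0.601 young) had ratios of 2.07 and 2.71. The median log2 ratio with a pseudocount of 1 was 0.72 over the 5 members and -0.27 over all listed genes. The 6 listed B cell markers were all higher, with a summed mean of 186 in the senescent and 69.6 in the young library. The macrophage or monocyte markers Apoe and Ctss, 2 of 13, summed to 15.8 in the senescent and 3.08 in the young library, and 12 listed proximal tubule markers summed to 34.2 in the senescent and 736 in the young library. The part of these markers in the B values, that of Irf8 included, was not tested.

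In Neutro, Ifitm1 was the single listed member, at 114 in the senescent and 6.42 in the young library. Its ratio of 17.7 was the largest of the 284 genes listed there with both means above 0, but it did not pass in the authors' deposited table, where 0 genes of Neutro passed as higher. The neutrophil markers S100a8 and S100a9 moved with it, with a summed mean of 2632 in the senescent and 1149 in the young library. Of 3 listed proximal tubule markers 2 were lower, Kap among them at 2.67 in the senescent and 42.7 in the young library. The part of these markers in the Ifitm1 value was not tested.

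Across clusters, 27 members were listed in 1 cluster, 14 in 2, 5 in 3, 5 in 4 and 2 in 5. All 8191 listed genes had 20111 entries, and their spread over clusters was not counted. The member counts therefore show nothing particular to the members. Stat2 was listed in Marco and in no other cluster, as were Isg15, Irf1, Irf7, Oas1a, Oasl2 and 12 further members, while Irf9 was listed in PT, Marco and B. Absence from the list does not show that a gene differed less elsewhere. Bst2 and Irf2bp2 were listed in PT, LOH, endo, Marco and T. For Bst2 the senescent means from high to low were 3.38 in Marco, 2.16 in T, 1.64 in endo, 0.442 in LOH and 0.350 in PT. Its young means stood in the order T (0.730), Marco (0.609), endo, PT and LOH. Irf2bp2 varied less, from 1.07 in LOH to 2.23 in endo and Marco in the senescent library and from 0.313 in endo to 0.651 in LOH and T in the young library. Without replicates, neighbours in these orders cannot be separated. Stat3 lay between 1.16 and 1.35 in LOH, Marco and T in the senescent library, against 0.126 to 0.283 in the young library, and was lower in PT in either library. Of the 26 members listed in 2 or more clusters, the senescent mean was highest in Marco for 10, in T for 6, in endo for 4 and in B for 3. Only clusters that list a gene were compared, which favours Marco, the cluster with the most members listed.

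**Figure D5:**
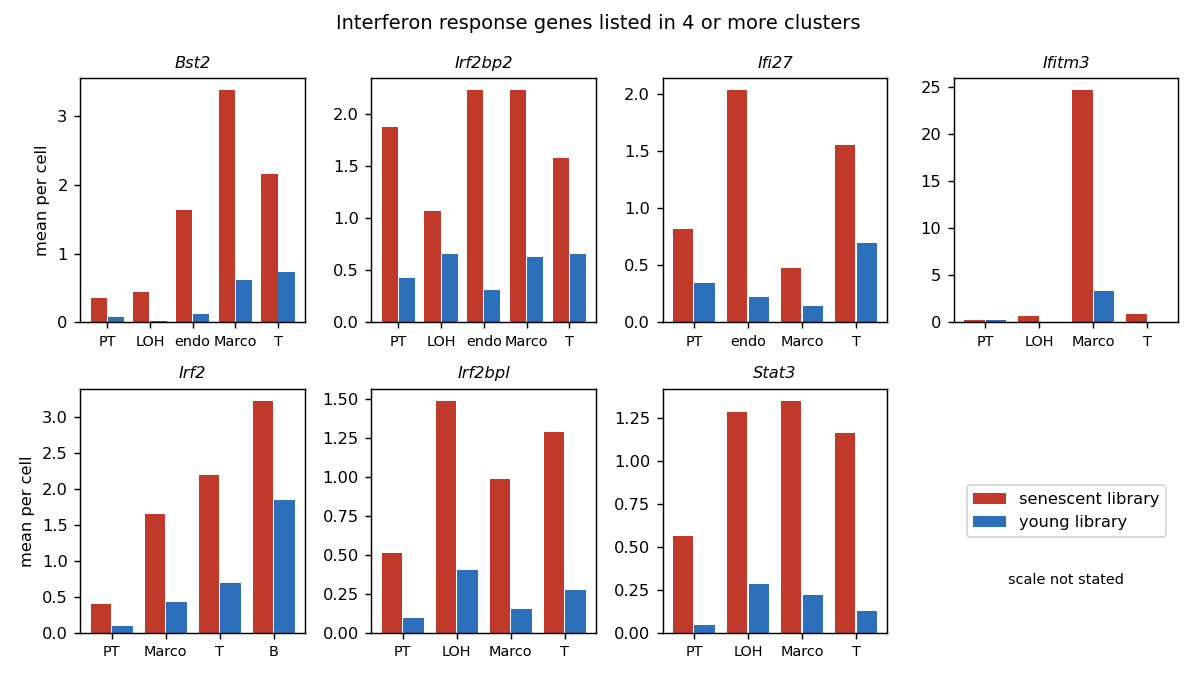
Authors' mean expression per cell (vertical axes, scale not stated and different for each gene) in the senescent library (red) and the young library (blue) for the 7 interferon response genes listed in 4 or more clusters. The red bar is above the blue bar in every cluster shown; Ifitm3 reaches 24.7 in senescent Marco against 0.250 in senescent PT.

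Upstream genes of the pathway, which are not members, followed the same direction in most entries. None of 9 interferon ligand genes was listed in any cluster. Receptors and kinases were listed in Marco for 7 of 9 genes, all higher. All 7 passed an adjusted p of 0.05 in the authors' deposited table. Of all listed genes in Marco, 58.3% were higher and 24.6% passed as higher. Ifngr1, the ligand-binding chain of the interferon gamma receptor, had means of 4.19 in the senescent and 0.808 in the young library of Marco, a ratio of 5.19. Its partner Ifngr2 had means of 1.68 in the senescent and 0.195 in the young library, a ratio of 8.57. Ifnar2, of the type I receptor, had means of 1.92 in the senescent and 0.528 in the young library, a ratio of 3.64. The kinase gene Jak1 had means of 1.596 in the senescent and 0.434 in the young library, a ratio of 3.68. In PT, 4 of 9 were listed and all were higher, with Jak1 at 0.713 in the senescent and 0.234 in the young library and Ifnar1 at 0.227 in the senescent and 0.0476 in the young library. Of all listed genes in PT, 78.4% were higher. In T 5 of 9 were listed as higher and 0 passed in the authors' deposited table. There 45.4% of all listed genes were higher and 6.69% passed as higher.

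Sensors and adaptors were listed in Marco for 5 of 14 genes, all higher, and 2 passed in the authors' deposited table. The shares of all listed genes in Marco, 58.3% higher and 24.6% passing as higher, stand beside these counts too. Sting1, the adaptor of cytosolic DNA sensing, had means of 1.23 in the senescent and 0.0504 in the young library, a ratio of 24.3. Myd88, the adaptor of Toll-like receptors, had means of 1.02 in the senescent and 0.123 in the young library, a ratio of 8.29. Of 7 feedback inhibitors, 4 were listed in Marco, all higher. Socs3, an inhibitor of cytokine receptor signalling, had means of 4.72 in the senescent and 0.0860 in the young library of Marco, a ratio of 54.9. Its senescent means were 0.794 in LOH, 0.828 in T, 1.61 in B and 4.67 in Neutro, each with a young value of 0. Socs3 passed by adjusted p in Marco and LOH, and not in T, B or Neutro, in the authors' deposited table. Among 53 other induced genes, 33 were higher and 1 lower of 34 listed in Marco, where 58.3% of all listed genes were higher. In T 20 of 20 were higher against 45.4% of all listed genes, and in B 12 of 12 against 28.3%. In endo 4 of 4 were higher against 48.8%, in LOH 3 of 3 against 47.8%, and in PT 3 of 4 against 78.4%. The single gene listed in Neutro, the GTPase gene Irgm2, was lower, at 0.280 in the senescent and 2.32 in the young library. Of these other induced genes, 19 of 34 passed as higher in Marco in the authors' deposited table, against 24.6% of all listed genes. In T 3 of 20 passed as higher against 6.69%, in PT 3 of 4 against 78.3%, and in B 3 of 12 against 3.32%. In LOH 1 of 3 passed as higher against 4.71%, and in endo 0 of 4 against 0.394%. Ly6e, a membrane protein gene of the interferon response, had means of 11.4 in the senescent and 1.22 in the young library of T, a ratio of 9.36, and means of 2.67 in the senescent and 0.455 in the young library of PT, a ratio of 5.86. Psmb8, an immunoproteasome subunit gene, had means of 9.31 in the senescent and 2.097 in the young library of T, a ratio of 4.44. The exception in Marco and in PT was Ly6a, which encodes the surface antigen Sca-1. In PT Ly6a had means of 3.14 in the senescent and 5.93 in the young library.

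Of the genes fixed by symbol, Iigp1, Mx1, Rsad2 and Usp18 were not listed in any cluster. All 53 members were matched by symbol to RefSeq genes of the same mouse build, mm10 (GRCm38), and all are annotated there as protein coding. Each value is for a whole gene. The span of Ifi27 (chromosome 12, 103434189 to 103440245) lies within that of Ifi27l2a (103433873 to 103443680), and the span of Ifit1 (chromosome 19, 34640889 to 34650009) lies within that of Ifit1bl1 (34592888 to 34662981). Whether counting used strand is not given in the sources used here, so the values of these 4 genes are uncertain as to which gene of the pair they belong to. Ifit1bl1 also spans Ifit3b and Ifit1bl2. The same doubt holds for reads in the shorter overlaps of 4 further members with protein coding genes, which are Irf5 with Tnpo3, Rtp4 with Masp1, Stat2 with Apof and Stat6 with Nab2.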

How the data were processed

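Cell Ranger 2.1.1 and the build mm10 are named in the submitters' processing notes. The authors deposited a signal, their mean expression per cell of a cluster in each library, with log2 fold changes and p-values over cells. Filters on cells, doublets, clustering, depth and the test are not given in the sources used here. Columns were assigned by the labels' descriptions. With 0.0001 added to both means, the log2 ratio of senescent to young matched the deposited log2 fold change to within 0.01 in every member entry. The authors' adjusted p-values are about 32574 times their p-values, the pattern of a Bonferroni correction. No intervals were computed because the depth is unknown.

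Computed here were ratios of the means, counts by direction and past 2-fold, and medians, over members whose higher mean reached 0.1, which all 100 entries did. Medians needed 5 members. Python 3.11.15, numpy 2.4.6, pandas 2.3.3 and matplotlib 3.10.9 were used. The code was tested on simulated data. No test between groups was possible with 1 library each. The members and lists were chosen with earlier results of these data known. The rule for named members took those listed in 3 or more clusters, with a mean of at least 1, or with 1 of the 3 largest ratios of a cluster, a young value of 0 ranking highest. Members named beyond it, such as Stat2, Isg15, Irf1, Irf7 and Irf3, were chosen after their values were seen. Alternatives were other filters, thresholds, pseudocounts and centrings, effector genes alone and the adjusted p. Centring on markers of the labelled cell type was chosen after seeing the data. Some genes counted among the members and markers are not reported here by name. The planned search of promoters and proteins was not run.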

Additional observations from a re-analysis of the deposited data

Results flagged for a closer look

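No member differed in direction between clusters. Of the other pathway genes, 3 had opposite directions in different clusters of the same pair of libraries, and none of these differences was tested. Ly6a was higher in the senescent library in T (12.1 senescent, 4.55 young) and in B (7.95 senescent, 2.77 young) and lower in PT (3.14 senescent, 5.93 young) and in Marco (2.60 senescent, 4.35 young). Its log2 ratio differed by 2.44 between B and PT. Pias1, an inhibitor of Stat signalling, was higher in the senescent library in PT (0.268 senescent, 0.0950 young) and lower in T (0.321 senescent, 0.428 young), a difference of 1.91 in log2 ratio, and it did not pass the adjusted p of the authors' deposited table in T. The kinase gene Tyk2 had a mean of 0.209 in the senescent library of Marco, where young was listed at 0. In Neutro Tyk2 was lower in the senescent library (0.0344 senescent, 1.12 young), and it did not pass the adjusted p there.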

How the results depend on the processing

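All 100 entries passed the filter on low values, so leaving it out changed nothing, and effector genes alone are a subset of these entries. The centre chosen changes the sizes. Centred on all listed genes, whose median log2 ratio was 1.22 in PT, 0.91 in Marco, -0.39 in LOH, -0.43 in endo, -0.52 in T and -1.15 in B, the members' log2 ratio was -0.39 for Ifitm2, -0.80 for Ifitm3 and -0.14 for Irf2bp1 in PT and -0.13 for Gbp2 in Marco. Members past 2-fold then numbered 5 in PT and 27 in Marco, and the member median with a pseudocount of 1 was 0.090 in PT, 0.71 in LOH, 1.37 in endo, 0.34 in Marco, 0.91 in T and 0.98 in B. Centred on ribosomal protein genes, 24 members in Marco, 12 in T and 2 in B were past 2-fold, 3 in B stayed higher, and the medians were -0.26 in PT, 0.10 in LOH, 0.65 in endo, -0.55 in Marco, -0.15 in T and -0.32 in B. Those negative medians come with the pseudocount of 1, which shrinks the ratios of low genes, since most ratios without it stayed higher. Centred on markers of the labelled cell type, 6 members in Marco and 3 in B stayed higher, and 1 in Marco, 8 in T and 2 in B were past 2-fold. The medians, again with the pseudocount of 1, were 0.68 in PT, -1.33 in Marco, -0.59 in T and -0.41 in B. Without the pseudocount, 14 of 20 members in T and 3 of 5 in B lay above the markers' median ratio, but 6 of 44 in Marco.

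With an adjusted p of at most 0.05 in the authors' deposited table, 29 members remained as higher in Marco (median 0.80), 2 in LOH, 1 in T and 0 in endo, B and Neutro, and those past 2-fold were 2 in LOH, 1 in T and 0 in endo, B and Neutro. When the higher of the means had to reach 1, 16 members remained in Marco (median 1.13), 11 in T, 5 in endo and 1 in PT, all past 2-fold, and 2 in LOH were past 2-fold. Effector genes alone left 7 higher and 5 past 2-fold in PT, 3 and 2 in LOH, and 2 and 2 in B. At 4-fold, 8 members passed in PT, 26 in Marco, 12 in T and 2 in B. A pseudocount of 0.1 gave medians of 1.24 in PT, 1.75 in LOH, 2.63 in endo, 1.69 in Marco, 1.84 in T and 1.30 in B, and 0.0001 gave 1.92, 2.03, 12.11, 2.24, 2.17 and 1.44 in the same order of clusters. The value of 12.11 rests on young means of 0. Medians are called the same here within 0.1 in log2. No paired analysis was possible because each group had 1 library. Depth and cell numbers per cluster are unknown, so the precision of low means could not be given.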

Other observations

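Of the 53 members, 24 lie in 7 groups on the mm10 genome in which neighbours are within 500 kb of each other. Members were chosen by family name, and the share of all genes in such groups was not counted, so this number only describes the list. Of all 8191 genes, 4462 were listed in Marco. The 7 PYHIN genes span 474.4 kb of chromosome 1, from 173468485 to 173942866, and all 7 were listed in Marco with ratios of 2.42 to 7.20. Ifitm1, Ifitm2, Ifitm3, Ifitm6 and Irf7 lie on chromosome 7 from 140954837 to 141266499, and all 5 were listed in Marco. Those with a ratio, which leaves out Ifitm1, had ratios of 5.71 to 15.4. Gbp2, Gbp3 and Gbp7 share 107.7 kb of chromosome 3, from 142530336 to 142638008, yet in Marco their ratios ran from 1.72 to 6.05. The Ifit genes on chromosome 19 were listed in T (Ifit1, Ifit1bl1) or in endo (Ifit3), each at 0 in the young library, and none was listed in Marco, the cluster with the most members.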
